A study of Rattus norvegicus with 6 samples.

Results

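The genes described are Mdm2, the main inhibitor of p53, and 8 genes that p53 activates around cell cycle arrest: Cdkn1a, Ccng1, Tp53inp1, Btg2, Zmat3, Phlda3, Plk3 and Sesn1. They were chosen by name with earlier results of these data known, and all 9 were found among the 34156 genes of the count table. RNA was sequenced from 6 cultures of rat cells that the study calls RA-FLS, that is fibroblast-like synoviocytes, a cell type that lines the joint. This identity was not tested here. The labels describe these cells as WT with rheumatoid arthritis as the disease state, and the study's methods give a commercial supplier. In 3 cultures (TNF-α group) the cells received 10 ng/mL TNF-α, and in 3 (TNF-α+EMO group) they received 10 ng/mL TNF-α together with 80 μmol/L emodin (EMO), an anthraquinone of rhubarb. Both groups therefore carry TNF-α, and neither an untreated culture nor EMO alone was analysed here. The labels give day 5 as the time, whereas the study's methods give a shorter exposure. The question was which mRNAs differ when EMO is added to TNF-α.

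p53 is a transcription factor that is kept scarce by Mdm2, a ubiquitin ligase that marks it for degradation and is itself a p53 target, so the pair forms a feedback loop. When DNA damage or other stress relieves that inhibition, p53 binds a site made of a repeated 10-base element and activates genes for arrest, repair and apoptosis. Cdkn1a encodes p21, which inhibits cyclin-dependent kinases and thereby lets the DREAM complex shut off genes of DNA replication and mitosis. In fibroblasts this loop governs the choice between proliferation, reversible arrest and senescence. Several of its targets can also be raised by other stress factors, so their mRNA levels alone do not measure p53 activity.

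Windows from 250 bases before to 50 bases after the gene start (RefSeq, build GRCr8) matched 7 of the 9 genes by symbol, all but Tp53inp1 and Zmat3. Because the 9 genes share a regulator, the windows were searched for the p53 consensus element (10 bases) and for a tandem of that element without spacer (20 bases, at most 2 mismatches, the core C and G of each element kept). Both motifs equal their own reverse complement, so reading one strand covers both. An element was found in 3 of the 7 windows (Cdkn1a, Ccng1, Sesn1), against 7.98% of 33465 windows of the same length, and a tandem in 2 (Cdkn1a and Ccng1, 1 mismatch each), against 0.335%. The 33465 windows include genes that were not tested here. Because the 9 genes were chosen as known p53 targets, more matches than over all windows can follow from that choice. The 3 windows are shown 5′ to 3′ on the gene's strand because they hold a match, with the match in capitals. Cdkn1a lies on the plus strand at chr20:7150682-7150981, Ccng1 on the minus strand at chr10:25684827-25685126 and Sesn1 on the plus strand at chr20:46948469-46948768.
Cdkn1a: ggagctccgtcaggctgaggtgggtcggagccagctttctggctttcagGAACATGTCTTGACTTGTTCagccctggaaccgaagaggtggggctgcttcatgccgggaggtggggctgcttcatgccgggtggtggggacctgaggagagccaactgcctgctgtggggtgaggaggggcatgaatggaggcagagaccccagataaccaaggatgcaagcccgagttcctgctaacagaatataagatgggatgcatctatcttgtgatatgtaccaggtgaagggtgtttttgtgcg
Ccng1: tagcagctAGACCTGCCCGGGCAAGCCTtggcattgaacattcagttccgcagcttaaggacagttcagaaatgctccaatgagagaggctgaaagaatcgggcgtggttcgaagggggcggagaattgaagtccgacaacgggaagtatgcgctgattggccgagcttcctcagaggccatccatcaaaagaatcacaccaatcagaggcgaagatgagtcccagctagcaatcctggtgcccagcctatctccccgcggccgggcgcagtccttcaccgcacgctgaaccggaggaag
Sesn1: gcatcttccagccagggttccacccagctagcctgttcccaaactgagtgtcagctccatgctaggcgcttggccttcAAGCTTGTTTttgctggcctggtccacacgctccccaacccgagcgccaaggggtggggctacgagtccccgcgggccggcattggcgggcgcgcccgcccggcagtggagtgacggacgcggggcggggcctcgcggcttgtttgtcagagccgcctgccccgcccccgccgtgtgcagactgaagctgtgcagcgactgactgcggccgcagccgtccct

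Counted from the gene start, the Cdkn1a tandem spans -201 to -182 and the Ccng1 tandem -242 to -223, while the Sesn1 element spans -172 to -163. This start is the RefSeq entry matched by symbol, and whether these cells begin the mRNA there was not tested. No match was found in the windows of Mdm2, Btg2, Phlda3 and Plk3, which says only that these letters are absent from these windows. Among 23 other tested genes with a tandem match, 10 were higher and 8 lower with EMO (43.5% and 34.8%). Of 666 other tested genes with an element, 39.3% were higher and 44.4% lower, and over all tested genes these shares were 39.4% and 41.4%.

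The libraries held 16813322 to 17794455 counts on genes. Of all genes, 13614 reached 10 counts in 3 or more libraries and were tested in edgeR (quasi-likelihood F test), with p-values adjusted over all of them by the Benjamini-Hochberg method and a threshold of 0.05. Values are normalized counts, that is counts scaled to a common library size by TMM, and a log2 fold change is TNF-α+EMO over TNF-α. The 2 groups differed widely, with 80.9% of tested genes past the threshold, 39.4% higher and 41.4% lower. Library TNF-α+EMO replicate 3 stood somewhat apart, with a median absolute log2 difference per gene of 0.233 from replicate 1 and 0.180 from replicate 2. The difference was 0.130 between TNF-α+EMO replicates 1 and 2, and 0.104 to 0.109 between TNF-α libraries. Cell type markers moved with the groups. Of 10 fibroblast markers, 6 were lower with EMO, including Col1a1. Dcn was higher but scarce, with 0, 4 and 1 raw counts with TNF-α and 33, 24 and 26 with EMO. The other 3 (Thy1, Prg4 and Pdpn) held at most 7 counts in any library. Lum and these 3 were at 0 in all TNF-α+EMO libraries. The summed normalized counts of the 10 were 188712 to 209193 with TNF-α and 35128 to 37805 with EMO. Of 7 macrophage markers, 2 (Cd68 and Itgam) were higher and 1 (Cd14) lower. Their summed level was 1202 to 1306 with TNF-α and 747 to 818 with EMO, nearly all from Cd14 and Cd68. Itgam held 1, 0 and 0 raw counts with TNF-α and 12, 10 and 14 with EMO, and Ptprc 0 or 1. Dcn and Itgam were thus tested only through their counts in the TNF-α+EMO libraries, and Lum only through those in the TNF-α libraries. Csf1r, Lyz2 and Adgre1 held at most 5 counts in any library. The summed level of 4 endothelial markers was 69.2 to 76.5 with TNF-α and 13.2 to 21.7 with EMO. The 6 epithelial markers summed to 9942 to 10808 with TNF-α and 1968 to 2304 with EMO, nearly all from Krt8, with Epcam and Krt5 at 0. The part of these marker shifts in the results that follow was not tested, and in bulk RNA fewer cells of a type and less RNA per cell cannot be told apart.

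Of the 9 genes, 8 were higher with EMO and 1, Sesn1, was lower, where 39.4% of all tested genes were higher and 41.4% lower. The groups did not overlap in any of the 9, which held for 82.9% of all tested genes (40.3% higher, 42.5% lower). With an absolute log2 fold change over 1 also required, 6 of the 9 stayed higher and 1 lower, against 19.5% and 27.8% of all tested genes. Their log2 fold changes had a median of 2.03, against -0.01 over all tested genes. Mdm2, Cdkn1a, Ccng1 and Tp53inp1 rose 8.23-fold to 14.0-fold, Phlda3 and Btg2 by 4.07-fold and 3.31-fold, and Zmat3 and Plk3 by 1.96-fold and 1.49-fold.

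**Figure D1:**
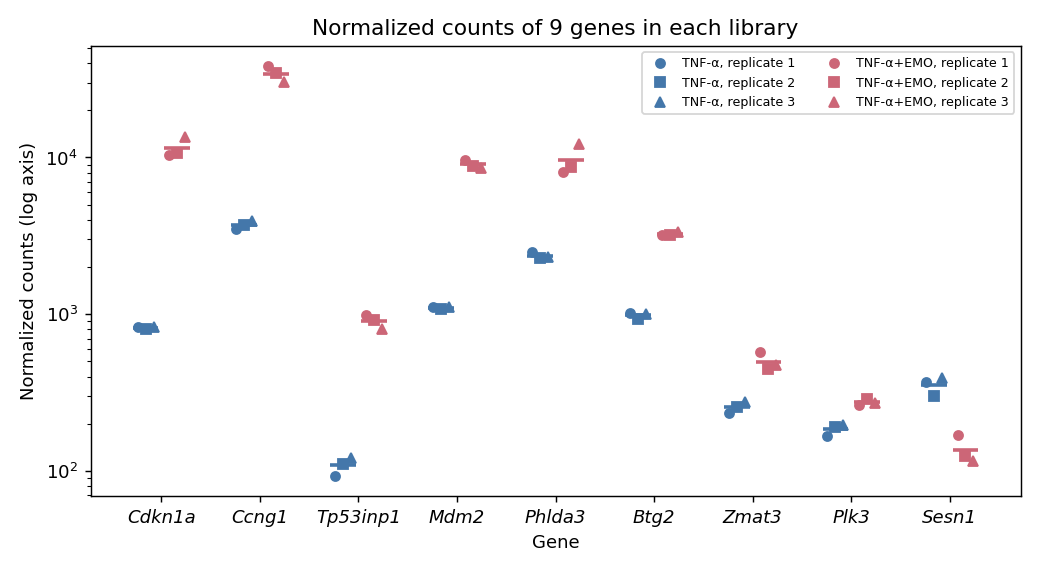
Normalized counts (log axis) of the 9 genes in each library, with points for the 3 replicates of TNF-α (blue) and TNF-α+EMO (red) and bars for group means. In 8 genes every TNF-α+EMO library lies above every TNF-α library, and in Sesn1 every one lies below.

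Mdm2 (ENSRNOG00000006304, chromosome 7, 60719066 to 60743328, minus strand, Rnor_6.0 as in the submitters' processing notes) had 1114, 1073 and 1105 normalized counts under TNF-α and 9705, 8789 and 8602 after EMO was added. All 3 TNF-α+EMO libraries were far above the TNF-α libraries, which were nearly equal. The mean rose from 1097 ± 21.8 to 9032 ± 590 (SD, n = 3 each), 8.23-fold, a log2 fold change of 3.04 ± 0.07 (SE, edgeR adjusted p = 2.3e-11). Mdm4, the relative that binds p53 without degrading it efficiently, also rose, by 0.99 in log2 terms (SE 0.11, edgeR adjusted p = 8.3e-06). Within each library, the ratio of Mdm2 to Mdm4 in counts per kilobase of gene length was 1.58 to 1.89 with TNF-α and 6.56 to 7.45 with EMO. This ratio does not depend on how libraries are scaled.

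Cdkn1a, which encodes the kinase inhibitor p21 (ENSRNOG00000000521, chromosome 20, 6351458 to 6358864, plus strand), had the largest change of the 9. Its normalized counts were 829.8, 804.5 and 827.1 with TNF-α and 10331, 10657 and 13494 with EMO. The TNF-α libraries lay within a narrow range and replicate 3 was the highest of the TNF-α+EMO libraries. The change was 14.0-fold, from 820.5 ± 13.9 to 11494 ± 1740, a log2 fold change of 3.81 ± 0.11 (SE, edgeR adjusted p = 1.5e-10), the 240th highest of 13614 genes. Cdkn1b, which encodes the related inhibitor p27, moved the other way by a small amount, with a log2 fold change of -0.24 ± 0.08 (SE, edgeR adjusted p = 0.014). Per kilobase, Cdkn1a was at 0.312 to 0.329 of Cdkn1b with TNF-α and at 5.04 to 5.56 times Cdkn1b with EMO, so the order of the pair turned over. The call of Cdkn1b was lost without TNF-α+EMO replicate 1 (-0.18) or 2 (-0.17). The third gene of that family, Cdkn1c, had at most 4 counts in any library and was not tested.

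Ccng1 encodes cyclin G1, which guides a phosphatase to Mdm2 and so feeds back on p53 (ENSRNOG00000003256, chromosome 10, 25903911 to 25910325, minus strand). It held 3504, 3686 and 3947 normalized counts with TNF-α and 38121, 34396 and 30110 with EMO. All 3 TNF-α+EMO libraries were far above the TNF-α libraries, and here replicate 3 was the lowest of them. The increase was 9.21-fold, a log2 fold change of 3.20 ± 0.09 (SE, edgeR adjusted p = 1.5e-10). The relatives Ccng2 and Ccni had log2 fold changes of 0.16 (SE 0.07, edgeR adjusted p = 0.043) and -0.67 (SE 0.10, edgeR adjusted p = 1.2e-04). The call of Ccng2 was lost under 13 of 14 alternatives, all but the one without TNF-α+EMO replicate 3, with values down to 0.05.

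Tp53inp1, a stress-induced nuclear protein that also acts in autophagy (ENSRNOG00000007964, chromosome 5, 24410863 to 24416888, plus strand), rose from 93.2, 111 and 121 to 995, 916 and 802 normalized counts. The groups lay far apart although the TNF-α level was low. The log2 fold change was 3.06 ± 0.12 (SE, edgeR adjusted p = 1.7e-09), an 8.34-fold increase. Its relative Tp53inp2 fell by 1.54 in log2 terms (SE 0.07, edgeR adjusted p = 4.2e-09). The ratio of the first to the second per kilobase accordingly went from 0.121 to 0.173 with TNF-α to 3.25 to 4.06 with EMO.

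Phlda3, a small protein that keeps the kinase AKT from the membrane (ENSRNOG00000009068, chromosome 13, 52588917 to 52592001, plus strand), had 2482, 2291 and 2323 normalized counts with TNF-α and 8029, 8642 and 12219 with EMO. All TNF-α+EMO libraries were above the TNF-α libraries, and replicate 3 was well above the other two. The change was 4.07-fold, with a log2 fold change of 2.03 ± 0.16 (SE, edgeR adjusted p = 1.3e-05). Its relative Phlda1 fell by 2.13 (SE 0.12, edgeR adjusted p = 2.4e-08), while Phlda2 rose by 0.72 (SE 0.19, edgeR adjusted p = 0.0046).

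Btg2, an antiproliferative protein that binds the deadenylase complex (ENSRNOG00000003300, chromosome 13, 50913180 to 50916982, minus strand), rose from 1018, 932 and 998 to 3201, 3216 and 3338 normalized counts. Its replicates were the closest of the 9 genes with EMO, with a coefficient of variation of 2.32%. The log2 fold change was 1.73 ± 0.06 (SE, edgeR adjusted p = 7.0e-10). Both tested relatives rose as well, Btg3 by 1.68 (SE 0.10) and Btg1 by 0.50 (SE 0.08), with adjusted p of 2.7e-08 and 1.7e-04 by edgeR.

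Zmat3 and Plk3 changed least. Zmat3, a zinc finger protein that binds RNA (ENSRNOG00000010119, chromosome 2, 118721334 to 118745766, minus strand), had 234, 255 and 274 normalized counts with TNF-α and 571, 444 and 478 with EMO. Its log2 fold change was 0.97 ± 0.12 (SE, edgeR adjusted p = 1.6e-05), a 1.96-fold rise, and the relative Zmat1 fell by 1.56 (SE 0.25, edgeR adjusted p = 1.3e-04). Plk3, a stress-responsive polo-like kinase (ENSRNOG00000018484, chromosome 5, 135997725 to 136002900, minus strand), had 167, 191 and 196 with TNF-α and 263, 288 and 273 with EMO. The groups were close but separate. The rise was 1.49-fold, a log2 fold change of 0.57 ± 0.12 (SE, edgeR adjusted p = 0.001), and 68.1% of all tested genes had a log2 fold change no higher than that. The polo-like family was divided. Plk2, also a p53 target, rose 9.51-fold (log2 fold change 3.25 ± 0.07 SE, edgeR adjusted p = 1.7e-11). The mitotic kinase Plk1 fell 146-fold (log2 fold change -7.18 ± 0.14 SE, edgeR adjusted p = 8.9e-12) and the centriole kinase Plk4 fell 13.8-fold (log2 fold change -3.79 ± 0.17 SE, edgeR adjusted p = 7.7e-09).

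Sesn1, a sestrin that restrains the growth kinase mTORC1 (ENSRNOG00000000302, chromosome 20, 46667121 to 46758305, plus strand), went against the other 8. Its normalized counts were 367, 299 and 394 with TNF-α and 169, 124 and 115 with EMO. Every TNF-α+EMO library was below every TNF-α library. The mean fell from 353 ± 48.5 to 136 ± 29.0 (SD, n = 3 each), 2.60-fold, a log2 fold change of -1.38 ± 0.17 (SE, edgeR adjusted p = 1.7e-05). An unnamed gene model that overlaps Sesn1 held 0 counts in all libraries, and none of the other 8 genes overlaps another listed gene.

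The order of the sestrin genes changed. Sesn2, which other stress pathways activate besides p53, rose from 562 ± 21.3 to 12399 ± 338 normalized counts, 22.1-fold (log2 fold change 4.46 ± 0.07 SE, edgeR adjusted p = 1.9e-12). Sesn3 fell from 711 ± 46.1 to 89.1 ± 5.51 (log2 fold change -2.99 ± 0.10 SE, edgeR adjusted p = 5.0e-10). Of the sestrin counts per kilobase in a library, Sesn1 made up 18.7% to 22.0% with TNF-α and 0.970% to 1.42% with EMO. The share of Sesn2 went from 28.0% to 32.2% with TNF-α to 97.6% to 98.1% with EMO, and Sesn3 went from 48.3% to 49.9% down to 0.877% to 0.944%.

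**Figure D2:**
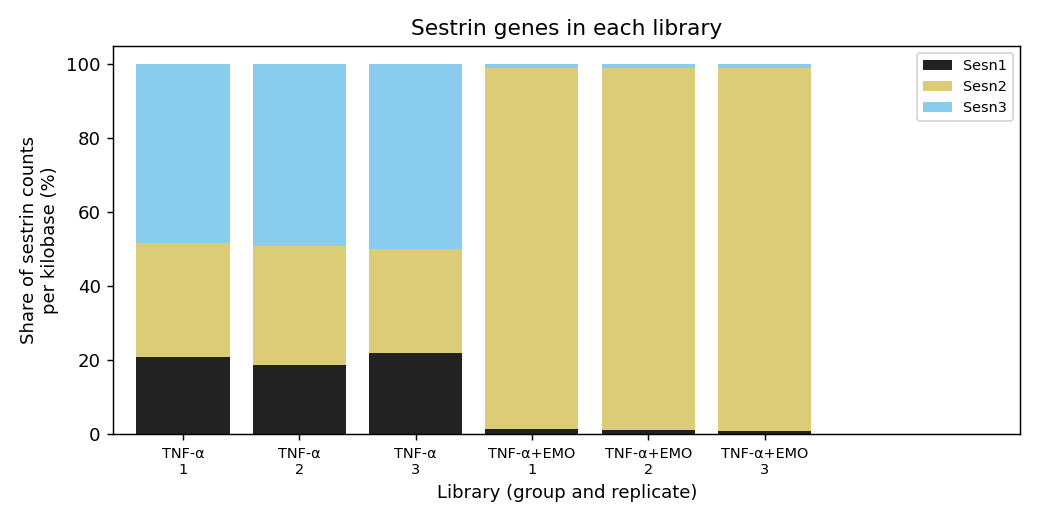
Share of Sesn1, Sesn2 and Sesn3 in the sestrin counts per kilobase of gene length (%), one bar per library. Sesn2 holds 28.0% to 32.2% under TNF-α and 97.6% to 98.1% when EMO is present.

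**Figure D3:**
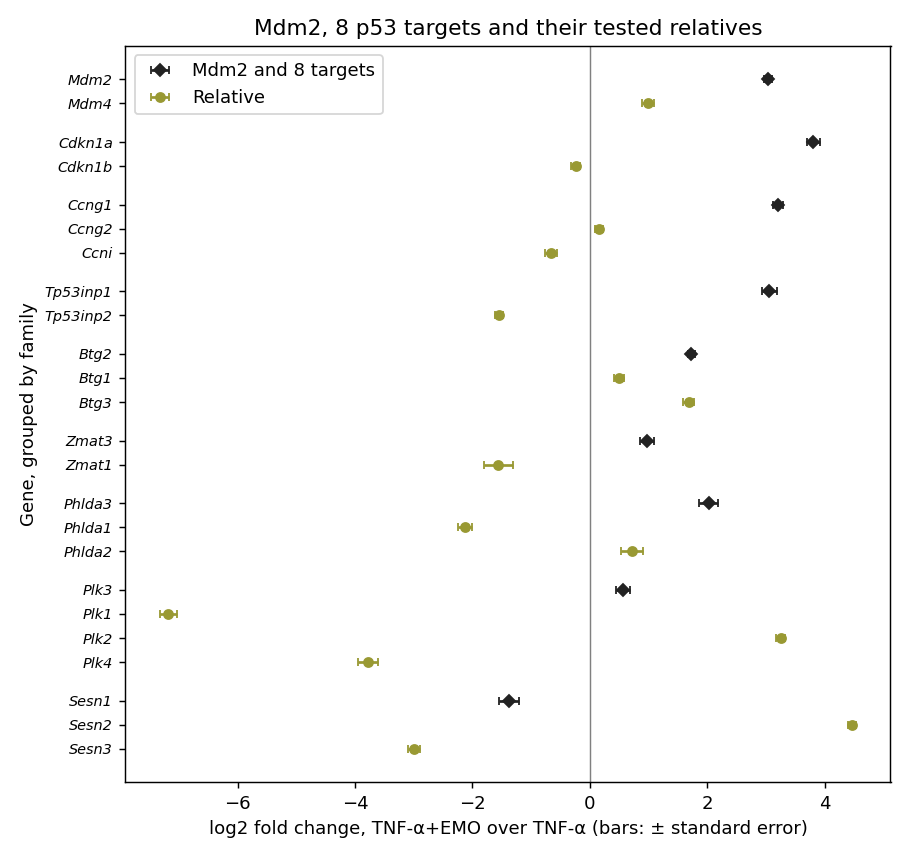
log2 fold change (TNF-α+EMO over TNF-α) of the 9 genes (black diamonds) and their tested relatives (olive circles), grouped by family, with bars for the standard error. Relatives spread to both sides of 0, from -7.18 for Plk1 to 4.46 for Sesn2.

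Across all 17 relatives, 15 were tested, with 7 higher and 8 lower under EMO (median log2 fold change -0.24). This is near the shares over all tested genes (39.4% higher, 41.4% lower).

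The order of the 9 genes by level also changed. Levels were set beside each other on the RPKM scale (counts per kilobase of gene length and sequencing depth, with TMM library sizes). Such an order depends on the deposited length of each gene, which the spread between libraries does not cover. The TNF-α order was Phlda3 (96.7 ± 4.17), Ccng1 (66.7 ± 4.00), Cdkn1a (24.5 ± 0.414), Btg2 (22.3 ± 1.02), Mdm2 (21.8 ± 0.433), Zmat3 (11.5 ± 0.891), Tp53inp1 (6.19 ± 0.801), Sesn1 (5.96 ± 0.818) and Plk3 (4.49 ± 0.380). In that order the libraries of Btg2 and Mdm2 overlapped, as did those of Tp53inp1 and Sesn1. With EMO, Ccng1 was first (614 ± 72.0), followed by Phlda3 (394 ± 92.5) and Cdkn1a (343 ± 51.9), whose libraries overlapped, and then by Mdm2 (179 ± 11.7). Btg2 (73.8 ± 1.71), Tp53inp1 (51.7 ± 5.56), Zmat3 (22.6 ± 2.99), Plk3 (6.68 ± 0.300) and Sesn1 (2.29 ± 0.489) came next without overlap. Ccng1 thus stood 154th of the 13614 tested genes by this level with EMO and 1339th with TNF-α, and Cdkn1a went from 3886th to 286th.

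Among the TNF-α+EMO libraries the 9 genes did not vary in one direction. In replicate 3, Cdkn1a, Phlda3 and Btg2 were highest, at 1.31, 1.52 and 1.04 times their values in replicate 1. Ccng1, Tp53inp1, Mdm2 and Sesn1 were highest in replicate 1 and lowest in replicate 3, with replicate 1 at 1.27, 1.24, 1.13 and 1.47 times replicate 3. The coefficient of variation with EMO was 23.5% for Phlda3, 21.3% for Sesn1 and 15.1% for Cdkn1a, where the median over 10263 genes with a mean of at least 100 normalized counts was 8.87%. With TNF-α it was 1.69% for Cdkn1a and 1.99% for Mdm2, below that group's median of 5.04%, as were Phlda3 and Btg2, while the other 5 genes lay above it, from 6.01% for Ccng1 to 13.7% for Sesn1.

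**Figure D4:**
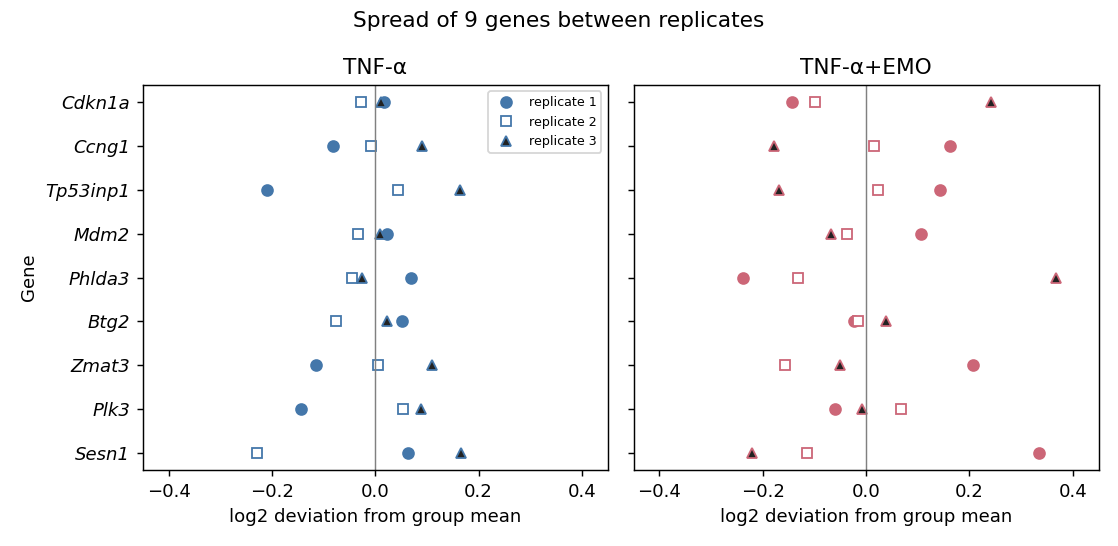
Deviation of each replicate from its group's mean on the log2 scale, for the 9 genes, in the TNF-α (left) and TNF-α+EMO (right) libraries. With EMO, replicate 3 (triangles) is the highest for Cdkn1a, Phlda3 and, by little, Btg2, and the lowest for Ccng1, Tp53inp1, Mdm2 and Sesn1.

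Further lists of p53 target genes and regulators are set beside the shares over all tested genes, 39.4% higher and 41.4% lower. Whether any list differs from the 9 genes was not tested. Sesn2, Plk2, Btg1, Mdm4, Plk1 and Plk4 are counted both in these lists and among the relatives above, so those counts are not separate. Of 7 further arrest genes, 6 were tested, 4 higher and 1 lower, with a median log2 fold change of 1.87. Gadd45a, which binds p21 and PCNA and acts in arrest and repair, rose from 680 ± 38.5 to 33386 ± 5481 normalized counts, 49.1-fold (log2 fold change 5.62 ± 0.13 SE, edgeR adjusted p = 2.7e-10), more than any of the 9. Sesn2, Plk2 and Btg1 are the others that rose. E2f7, a repressor of cell cycle genes, fell 46.1-fold from 331 ± 1.67 to 7.18 ± 2.73 (adjusted p = 1.9e-09 by edgeR), and Sfn did not pass the threshold.

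Of 13 apoptosis genes in the table, 12 were tested, of which 5 were higher, 4 lower and 3 not past the threshold (median log2 fold change 0.38), shares near those over all tested genes. Aen, a nuclease, and Pmaip1, which encodes the BH3-only protein NOXA, rose most, by 3.67 (SE 0.09) and 2.55 (SE 0.07) on the log2 scale. Bax, the pore-forming BCL2 relative, rose by 1.57 (SE 0.17), and its 2402, 2862 and 3877 normalized counts with EMO were again highest in replicate 3. Apaf1, the apoptosome scaffold, and Bid, a BH3-only protein, were lower, with log2 fold changes of -1.97 (SE 0.08) and -0.66 (SE 0.08). The death receptor gene Fas had a log2 fold change of 0.11 ± 0.08 (SE, edgeR adjusted p = 0.24).

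Of 6 DNA repair targets, 3 were higher, 1 lower and 2 not past the threshold (median log2 fold change 0.08). Rrm2b, the p53-induced ribonucleotide reductase subunit, and Xpc, a damage sensor, rose by 0.42 (SE 0.14) and 0.17 (SE 0.06), and neither passed when any TNF-α library was left out (0.34 to 0.37 and 0.08 to 0.12) or when libraries were scaled by their totals alone (0.31 and 0.06). Xpc also failed with upper quartile factors (0.13) and without TNF-α+EMO replicate 2 (0.16). Ddb2, another damage sensor, rose 2.67-fold from 27.7 ± 4.63 to 74.0 ± 23.7 normalized counts (log2 fold change 1.42 ± 0.30 SE, edgeR adjusted p = 0.0011). The Fanconi gene Fancc fell 2.62-fold. Of 10 targets in metabolism, redox and autophagy, 4 were higher and 5 lower (median log2 fold change -0.28), again near the shares over all tested genes. Tigar, which lowers glycolytic flux, rose 2.81-fold, whereas Gls2, a mitochondrial glutaminase, fell 21.4-fold from 933 ± 68.7 to 43.6 ± 15.6 normalized counts and Prkab1, a subunit of the energy sensor AMPK, fell 1.94-fold. Gdf15, a stress cytokine, had 2, 2 and 1 raw counts under TNF-α and 521, 532 and 643 with EMO, a ratio of 356 with an exact 95% interval of 152 to 1097 that covers counting error only. Gdf15 is counted among the 4 higher although it was tested only through its counts in the TNF-α+EMO libraries.

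Of 17 upstream regulators in the table, 16 were tested, with 7 higher and 8 lower (median log2 fold change -0.53), where 39.4% of all tested genes were higher and 41.4% lower. Rchy1, another ubiquitin ligase for p53, rose 2.10-fold, beside the 1.99-fold rise of Mdm4. The damage kinase gene Atm fell 5.67-fold from 1263 ± 79.8 to 223 ± 21.8 normalized counts (adjusted p = 1.2e-09 by edgeR), and Aurka, a mitotic kinase that acts on p53, fell 8.14-fold (adjusted p = 2.0e-09). The p53 relative Tp63 had 15, 16 and 13 raw counts with TNF-α and 0 in each TNF-α+EMO library. It is counted among the 8 lower although it was tested only through its counts in the TNF-α libraries, so it could not have come out higher.

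Cell cycle genes that p21 and DREAM repress were all lower. All 22 members of this list in the table passed the threshold, against 41.4% of all tested genes lower, with a median log2 fold change of -4.81. Among them, Cenpa held 7, 6 and 6 raw counts with EMO and 282, 259 and 315 with TNF-α, so it was tested only through its counts in the TNF-α libraries. Top2a, a topoisomerase of dividing cells, fell from 8257 ± 315 to 15.7 ± 6.66 normalized counts, 525-fold (log2 fold change -9.03 ± 0.15 SE, edgeR adjusted p = 4.4e-12). The smallest decreases in the list were those of Pcna, the replication clamp and itself a p53 target, at 1.99-fold (log2 fold change -0.99 ± 0.06 SE), and Cdc25a, a CDK phosphatase, at 1.87-fold (log2 fold change -0.90 ± 0.09 SE). The rise of Cdkn1a and the fall of this list were measured in the same 6 libraries, and no link between them was tested.

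**Figure D5:**
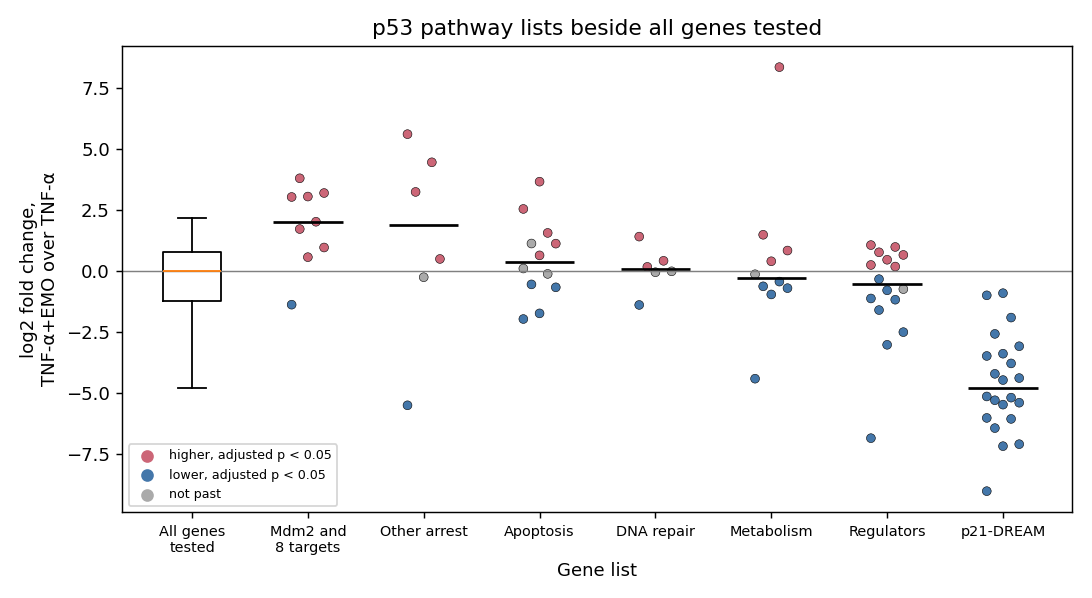
log2 fold change (TNF-α+EMO over TNF-α) of each tested gene in 7 lists, coloured by call, with bars at list medians, beside all 13614 tested genes (box: quartiles, whiskers: 5th to 95th percentile). The list medians run from 2.03 for Mdm2 and its 8 companions to -4.81 for the p21 and DREAM list.

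The genes whose pattern over the 6 libraries was most like that of Mdm2, by Euclidean distance between mean-centred log2 normalized counts among 10262 genes, were Tmem62 (distance 0.10), Serpinb6a (0.124) and Herpud1 (0.167). For Cdkn1a they were Mgmt (0.282), Sohlh1 (0.284) and Il3ra (0.295). With 2 groups of 3 libraries, this distance mostly reflects a like size of change, and the log2 fold changes of the 6 genes ranged from 3.04 to 4.02.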

How the data were processed

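The 6 libraries were grouped by the sample titles, which call the TNF-α group control and the TNF-α+EMO group Emodin and give the replicate numbers. The treatment labels give TNF-α for the first group and TNF-α with emodin for the second. Poly(A)-selected paired-end reads were cleaned and aligned with HISAT2 to a rat genome (Rnor_6.0 in the submitters' processing notes, which also name FastQC and Trimmomatic). The counting program, annotation version and strand setting are not given in the sources used here. The authors deposited raw counts per gene without normalization. The authors also deposited FPKM values, scaled by gene length and mapped fragments, and the group means, fold changes and p-values of their own DEseq comparison, none of which were used here.

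Genes reaching 10 counts in 3 or more libraries were normalized by TMM and compared with edgeR 4.0.16 in R 4.3.3 (robust quasi-likelihood fit, F test, Benjamini-Hochberg adjustment over all genes tested). The standard error is the log2 fold change divided by the square root of F. Levels per kilobase use the deposited gene length. The fits were tested on simulated counts in which only a small part of the genes changed. That test does not cover differences as wide as those between these 2 groups. With 3 libraries against 3, an exact permutation test cannot give a p below 0.1, so p-values rest on the spread that edgeR shares across genes. The study's methods call the 3 libraries of a group biological replicates. The labels do not say what separates them, and p-values measure only the spread between these libraries.

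The genes, the pathway lists and the relatives were chosen with earlier results of these data known. The genes named were all 9, every tested relative, the 2 highest and 2 lowest changes past the threshold in each other list among genes with a mean of at least 100 normalized counts, and the 3 genes most like Mdm2 and Cdkn1a. Fas, Bax, Sfn, Tp63 and Ddb2 were named after their values were seen. Of the listed genes, Chek1, Bbc3, Tnfrsf10b, Sco2, Ccnb2, E2f1, Col1a2 and Pecam1 were not analysed here. 1 further repair gene is not reported here and was left out of the counts of its list. The alternatives were DESeq2 1.42.0, other scalings, other filters on low counts, a fold change threshold, the replicate number as a block and leaving out each library.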

Additional observations from a re-analysis of the deposited data

How the results depend on the processing

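For Mdm2 and the 8 targets, direction and call held under all 14 alternatives run, except that Zmat3 (0.97) and Plk3 (0.57) were no longer called when an absolute log2 fold change over 1 was also required. That requirement also lowered the count of regulators higher from 7 to 1, apoptosis genes lower from 4 to 2, repair genes higher from 3 to 1, metabolism genes higher from 4 to 2 and lower from 5 to 1, relatives higher from 7 to 3, and all genes higher from 5366 to 2659 and lower from 5642 to 3783.

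Scaling by library totals alone moved the median log2 fold change of all tested genes from -0.01 to -0.12 and left 1 repair gene higher. The value of Fas, which did not pass, was then -0.0044. Without one library at a time, Fas ranged from -0.016 (without TNF-α replicate 3) to 0.18 (without TNF-α+EMO replicate 3, when it passed) and Sfn from -0.54 to 0.13. The log2 fold change of Mdm2 then ranged from 2.95 to 3.10, that of Cdkn1a from 3.70 to 3.90 and that of Sesn1 from -1.56 to -1.25. The repair genes higher numbered 1 to 3, with 1 when any TNF-α replicate was left out. The further arrest genes lower numbered 0 to 1, with 0 when any TNF-α replicate was left out, since E2f7 then failed the filter on low counts. Without one library at a time, the p21 and DREAM genes lower numbered 21 to 22.

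When the replicate number entered the fit as a block, the log2 fold change of Mdm2 was 3.04, and 8 of the 9 genes were higher and 1 lower. Among the named genes the block ended only the call of Ccng2 (0.16). Deviations of libraries with the same number correlated at 0.02, -0.01 and 0.07, and those with different numbers at -0.07 to 0.05. The labels do not say whether libraries of the same number belong together, and so few libraries cannot settle it. With 3 libraries a group, small differences such as that of Plk3 are the least certain, and without an untreated or EMO-only group the comparison is limited to EMO added to TNF-α.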
